A study of Mus musculus with 14 samples.

Results

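Hepatokines are proteins that the liver secretes into blood and that act on, or carry cargo to, other organs. A set of 10 of them was followed by name in the liver mRNA of diet-induced obese (DIO) mice with and without surgery, namely *Fgf21*, *Gdf15*, *Inhbe*, *Inhba*, *Enho*, *Ahsg*, *Fetub*, *Lect2*, *Rbp4* and *Shbg*. The set is a list of gene symbols drawn up with earlier results of these data known, and all 10 were found among the 25212 genes of the deposited count table. With a filter on low counts 9 of them were tested, among 14252 genes, and *Shbg* was too low. All 14 livers came from adult male C57BL/6 mice on a high fat diet (HFD). The 5 DIO mice had no operation, so the group is no sham control. In the 4 GB-IL mice the gallbladder was joined to the ileum and the common bile duct was tied, which sends bile to the distal small intestine, and the 5 RYGB mice had Roux-en-Y gastric bypass. The labels place the livers at 8 weeks after surgery and name 2 stranded library kits, of which 1 selects mRNA and 1 starts from total RNA, and do not tie either to a liver, so kit and group cannot be told apart. Whether food was withheld before the livers were taken is not given in the sources used here.

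Several hepatokines report on the metabolic state of the hepatocyte. *Fgf21* is switched on by PPAR-alpha in fasting and by ATF4 in the integrated stress response, *Gdf15* is a stress hormone sensed in the hindbrain, and *Inhbe* and *Inhba* encode the beta E and beta A chains of activins, dimeric ligands of the TGF-beta superfamily. *Enho* encodes adropin, a secreted peptide tied to energy balance. *Ahsg* and *Fetub* encode fetuin-A and fetuin-B, abundant plasma proteins of the cystatin superfamily of which the former inhibits ectopic calcification and the latter the egg protease ovastacin, while *Lect2* encodes a leukocyte chemotactic factor, *Rbp4* the plasma carrier of retinol and *Shbg* a plasma carrier of sex steroids.

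At a false discovery rate (FDR) of 0.05 over all genes tested, by the quasi-likelihood test of edgeR, 0 of the 9 tested hepatokines changed between GB-IL and DIO, against a background of 3.26% of genes called. Beneath that count the livers differed widely. In GB-IL livers 1, 2 and 3 *Fgf21*, *Inhbe* and *Lect2* were below every DIO liver, and *Ahsg* and *Fetub* were above every DIO liver, whereas GB-IL liver 4 lay within the DIO range for *Fgf21* and *Lect2* and on the opposite side of it for the other 3 genes. Between RYGB and DIO 0 of 9 hepatokines passed the FDR, as did 0.0% of all genes, although *Fetub* and *Enho* were higher in each of the 5 RYGB livers than in any DIO liver. *Lect2* was below every DIO liver in 4 of the 5 RYGB livers. Between GB-IL and RYGB 0 of 9 passed, again with a background of 0.0%. An unadjusted p below 0.05 by edgeR was reached by 3 of 9 hepatokines (*Inhba*, *Ahsg* and *Fetub*; background 23.1%), 1 of 9 (*Enho*; 8.71%) and 1 of 9 (*Inhba*; 22.1%) in the same 3 comparisons. In the same order DESeq2 called 2 (*Inhba* and *Fetub*), 0 and 1 (*Inhba*) of them, with 9.07%, 0.681% and 5.93% of all genes. Voom, the limma method, used with quality weights per liver, called 0, 1 (*Enho*) and 0, with 4.13%, 11.9% and 0.807% of all genes. No hepatokine separated all GB-IL livers from all DIO livers, as 4.17% of genes did.

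Total counts ran from 18223135 to 28656631 per liver, and levels are given as CPM, the count scaled to library size with edgeR's TMM factors. The leading principal component of all tested genes (47.9% of variance) placed GB-IL livers 1, 2 and 3 at 143, 114 and 20.5 and GB-IL liver 4 at -37.5, inside the DIO range of -48.6 to -23.5. The common biological coefficient of variation was 0.543 in GB-IL against 0.244 in DIO and 0.295 in RYGB. Hepatocyte markers (15 genes, led by *Alb* and *Hpx*) summed to 144233 to 163465 CPM in DIO, 140336 to 175721 CPM in GB-IL and 147600 to 189700 CPM in RYGB, which overlapped. In GB-IL versus DIO 7 of the 15 had a log2 fold change above 0 and 8 below, which the sum does not show. Macrophage markers (14 genes) summed to 434 to 742 CPM in DIO, 963 to 2324 CPM in GB-IL and 485 to 1121 CPM in RYGB. Stellate cell markers (12 genes) ran from 211 to 345 CPM in DIO, 276 to 907 CPM in GB-IL and 306 to 608 CPM in RYGB, highest in GB-IL liver 1 and RYGB liver 5. Neutrophil markers (10 genes) summed to 5.50 to 10.99 CPM in DIO, where *Ly6g* was at 0, to 112, 49.5, 405 and 7.08 CPM in GB-IL livers 1 to 4, and to 141 CPM in RYGB liver 5 against at most 12.9 CPM in the other RYGB livers. Cholangiocyte markers (10 genes) ran from 48.5 to 77.2 CPM in DIO and were 323, 261, 223 and 73.6 CPM in GB-IL livers 1 to 4 and 76.98 to 97.5 CPM in RYGB. Exocrine pancreas markers (8 of 9 in the table) reached 1366 CPM in GB-IL liver 1 and at most 37.1 CPM elsewhere. In such bulk RNA fewer cells of a type and less RNA per cell cannot be told apart, and the part of these markers in the results below was not tested. The labels give 1 library per liver and do not say how the livers of a group were spread over cohorts, so p-values measure the spread between these livers only.

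Compared per length, as CPM per kilobase of exon over all 14 livers, the members spanned a wide range. *Ahsg* was highest at 4708, followed by *Rbp4* at 2295, *Fetub* at 360, *Lect2* at 127 and *Enho* at 23.6. The activin and stress hormone genes were lower on this scale, with *Inhbe* at 8.78, *Fgf21* at 3.99, *Gdf15* at 2.92 and *Inhba* at 0.214 CPM per kilobase, and *Shbg* stood at 0.00683. *Inhbe* has 5319 bases of annotated exon, and before division by length its mean was 46.7 CPM, above that of 81.1% of tested genes. Depth sets how firmly each can be read. A GB-IL liver held between 158904 and 417884 counts of *Ahsg* but only 4 to 149 counts of *Fgf21* and 0 to 19 counts of *Inhba*.

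**Figure D1:**
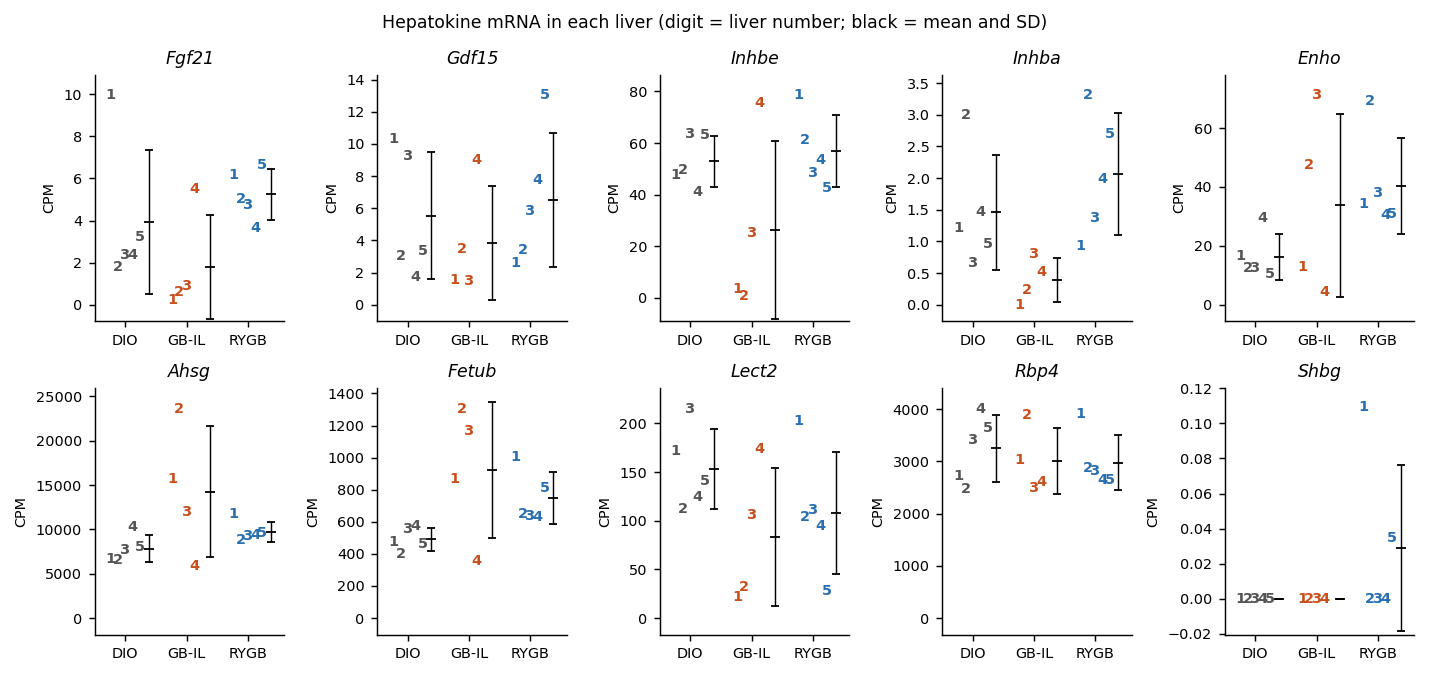
Level of each of the 10 hepatokines in each liver, in CPM on linear axes, with DIO in grey, GB-IL in orange and RYGB in blue. Each digit is a liver at its own value and the black bar is the group's mean with its SD (n = 5, 4 and 5). The digit 4 of GB-IL lies above the digits 1 to 3 in *Fgf21* and *Inhbe* and below them in *Ahsg* and *Fetub*.

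The plot of CPM by liver shows the GB-IL spread that recurs through the set. The promoters of 4 members are given here, whose genes lay apart from DIO in the same GB-IL livers, as *Lect2* did too. Of the 10 members 9 were found in the RefSeq promoter table. The windows are RefSeq's on GRCm38.p6, from 250 bases before to 50 bases after the annotated start, 5′ to 3′ on the strand of the gene. *Fgf21* (chr7:45615441-45615740, minus strand) and *Inhbe* (chr10:127351799-127352098, minus strand) are shown with the letters TGATG, the core of the composite site of ATF4 and C/EBP factors, in capitals, written as CATCA where the match is on the other strand.
Fgf21: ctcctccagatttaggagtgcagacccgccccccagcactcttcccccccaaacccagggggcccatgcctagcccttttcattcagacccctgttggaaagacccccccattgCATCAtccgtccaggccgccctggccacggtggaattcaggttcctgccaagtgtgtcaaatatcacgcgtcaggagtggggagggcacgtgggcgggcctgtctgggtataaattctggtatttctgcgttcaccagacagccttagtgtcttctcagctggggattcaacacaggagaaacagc
Inhbe: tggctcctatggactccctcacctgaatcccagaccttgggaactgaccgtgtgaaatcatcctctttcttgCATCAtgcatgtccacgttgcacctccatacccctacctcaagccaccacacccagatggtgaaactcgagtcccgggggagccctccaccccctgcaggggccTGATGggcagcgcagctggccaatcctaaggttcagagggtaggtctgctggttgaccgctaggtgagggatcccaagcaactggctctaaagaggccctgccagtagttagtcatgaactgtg
*Fgf21* held 1 match, on the opposite strand at position 115 of the window, and *Inhbe* held 2, at position 73 on the opposite strand and at position 177. Of all 32851 promoters of this length, 39.3% hold TGATG on either strand. *Ahsg* (chr16:22891765-22892064, plus strand) and *Fetub* (chr16:22918132-22918431, plus strand) are shown with the CCAAT box in capitals, written as ATTGG where the match is on the other strand.
Ahsg: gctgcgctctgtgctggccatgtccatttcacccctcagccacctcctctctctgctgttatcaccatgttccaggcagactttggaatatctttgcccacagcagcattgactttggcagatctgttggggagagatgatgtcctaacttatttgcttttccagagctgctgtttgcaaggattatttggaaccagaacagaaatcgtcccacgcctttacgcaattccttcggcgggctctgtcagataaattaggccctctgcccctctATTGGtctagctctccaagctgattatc
Fetub: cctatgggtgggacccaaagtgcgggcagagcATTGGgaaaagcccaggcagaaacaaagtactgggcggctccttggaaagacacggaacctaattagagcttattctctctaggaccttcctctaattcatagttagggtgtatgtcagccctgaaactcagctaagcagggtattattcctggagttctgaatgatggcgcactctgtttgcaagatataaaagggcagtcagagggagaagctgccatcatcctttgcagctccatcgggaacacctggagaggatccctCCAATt
*Ahsg* held 1 match, at position 273, and *Fetub* held 2, at positions 33 and 295, and those at 273 and 295 are after the start. The windows of *Ahsg* and *Inhbe* lie inside the gene bounds printed below, which begin further upstream. CCAAT is in 37.4% of all such promoters, so neither motif is rare, and a match is no more than these letters. TGATG was found in the *Ahsg* and *Fetub* windows too, and CCAAT in that of *Inhbe*. The motif AGGTCA, bound by retinoid and related nuclear receptors, was in none of these 4 windows and is in 16.3% of all promoters. Among the other members, TGATG was also in the window of *Lect2* and in a window each of *Gdf15* and *Rbp4*. CCAAT was in a window each of *Gdf15* and *Rbp4*, and AGGTCA in a window of *Gdf15*. No match was found for any of the 3 motifs in the windows of *Inhba* and *Shbg*. For *Fetub* the table gives a second start, whose window holds none of the 3 motifs.

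*Fgf21* (ENSMUSG00000030827, chromosome 7, 45613886 to 45615490 on GRCm38, minus strand) is the fasting and stress hormone of the set. Its level in DIO livers 1 to 5 was 9.94, 1.77, 2.34, 2.38 and 3.22 CPM. In GB-IL livers 1 to 4 it was 0.210, 0.621, 0.891 and 5.50 CPM. In RYGB livers 1 to 5 it was 6.18, 5.03, 4.72, 3.64 and 6.65 CPM. GB-IL livers 1 to 3 were thus the 3 lowest of all 14, while DIO liver 1 and GB-IL liver 4 stood above the rest of their groups, so that GB-IL overlapped both other groups. The means were 3.93 ± 3.401 CPM in DIO (SD, n = 5), 1.80 ± 2.48 CPM in GB-IL (SD, n = 4) and 5.24 ± 1.20 CPM in RYGB (SD, n = 5). Its log2 fold change was -1.09 for GB-IL versus DIO (SE 0.71, 95% interval -2.61 to 0.43, edgeR adjusted p = 0.349), 0.42 for RYGB versus DIO (SE 0.65, edgeR adjusted p = 0.891) and -1.51 for GB-IL versus RYGB (SE 0.72, edgeR adjusted p = 0.233). Leaving out GB-IL liver 4 moved these to -2.75 versus DIO (edgeR adjusted p = 0.00764) and -3.16 versus RYGB (edgeR adjusted p = 0.00708), whereas leaving out DIO liver 1 brought the first to -0.40 (edgeR adjusted p = 0.729).

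*Inhbe* (ENSMUSG00000047492, chromosome 10, 127348857 to 127354411, minus strand), the hepatocyte-restricted activin chain, ranged widely within GB-IL. It stood at 47.5, 49.7, 63.4, 40.9 and 63.0 CPM in DIO livers 1 to 5. The GB-IL livers, in order from 1 to 4, held 3.62, 0.791, 25.2 and 75.4 CPM. RYGB livers 1 to 5 held 78.7, 61.0, 48.4, 53.4 and 42.7 CPM. The range within GB-IL ran from 14 to 2044 counts and covered that of DIO on both sides, with GB-IL liver 4 above every DIO liver and the other 3 below, while RYGB and DIO overlapped, with RYGB liver 1 above every DIO liver and DIO liver 4 below every RYGB liver. The means were 52.9 ± 9.94 CPM in DIO (SD, n = 5), 26.3 ± 34.5 CPM in GB-IL (SD, n = 4) and 56.8 ± 13.9 CPM in RYGB (SD, n = 5). The log2 fold change of GB-IL versus DIO was -1.01 (SE 0.77, 95% interval -2.64 to 0.63, edgeR adjusted p = 0.415), and it was -2.41 without GB-IL liver 4 (edgeR adjusted p = 0.0262). Without GB-IL liver 2 it was -0.62 (edgeR adjusted p = 0.582) and without GB-IL liver 1 -0.65 (edgeR adjusted p = 0.680). For RYGB versus DIO it was 0.10 (95% interval -1.40 to 1.61, edgeR adjusted p = 0.977). Its chromosomal neighbour *Inhbc*, named for its position after the values were seen, which encodes the beta C chain and lies 1910 bases away on the same strand, differed by -0.83 (log2) between GB-IL and DIO (edgeR adjusted p = 0.258). *Inhbe* overlaps the antisense gene *Gm47200*, and since the strand setting of the counting is not given in the sources used here, reads of the pair may not have been told apart.

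*Inhba* (ENSMUSG00000041324, chromosome 13, 16011851 to 16031621, plus strand), which encodes the chain of activin A, was scarce everywhere. DIO livers 1 to 5 held 1.20, 3.00, 0.661, 1.47 and 0.961 CPM. GB-IL livers 1 to 4 held 0, 0.226, 0.806 and 0.516 CPM, from 0, 4, 19 and 14 counts, where a count of 0 allows up to 0.156 CPM (3 counts). RYGB livers 1 to 5 held 0.930, 3.30, 1.37, 1.99 and 2.70 CPM, from 17, 67, 39, 48 and 78 counts. RYGB liver 1 thus lay above GB-IL liver 3 by little, and only after scaling to library size. All 4 GB-IL livers, the fourth included, lay below every RYGB liver and 3 of them below every DIO liver, and *Inhba* was the 1 hepatokine of 9 that separated GB-IL from RYGB completely (2.84% of all genes did so in either direction and 1.57% in that direction). The log2 fold change was -1.85 versus DIO (SE 0.67, 95% interval -3.28 to -0.42, edgeR adjusted p = 0.128) and -2.35 versus RYGB (SE 0.67, 95% interval -3.78 to -0.92, edgeR adjusted p = 0.104). DESeq2 placed both past the FDR (adjusted p = 0.0327 and 0.00725), and without GB-IL liver 4 edgeR called the second (adjusted p = 0.0355) but not the first (adjusted p = 0.0684). *Inhba* overlaps the opposite-strand genes *B230303A05Rik*, a pseudogene, and *Gm48444*.

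*Gdf15* (ENSMUSG00000038508, chromosome 8, 70629393 to 70632456, minus strand) varied as much within groups as between them. Its level was 10.3, 3.00, 9.26, 1.75 and 3.32 CPM in DIO livers 1 to 5, and 1.52, 3.45, 1.48 and 9.001 CPM in GB-IL livers 1 to 4. In RYGB livers 1 to 5 it was 2.62, 3.40, 5.84, 7.78 and 13.0 CPM. The 3 groups overlapped, with GB-IL liver 4 again the highest of its group. In log2 terms the difference was -0.51 for GB-IL versus DIO (95% interval -1.88 to 0.86, edgeR adjusted p = 0.629) and 0.25 for RYGB versus DIO (95% interval -1.03 to 1.52, edgeR adjusted p = 0.932). Over the omissions of a single liver the former ran from -1.38 to -0.16, and without RYGB liver 5 the latter turned to -0.16.

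*Enho* (ENSMUSG00000028445, chromosome 4, 41638144 to 41640324, minus strand), the gene of adropin, was the member that set RYGB furthest from DIO. DIO livers 1 to 5 held 16.4, 12.4, 12.5, 29.4 and 10.3 CPM. In GB-IL the 4 livers held 12.7, 47.3, 71.1 and 4.24 CPM. RYGB livers 1 to 5 held 34.2, 69.0, 37.95, 30.4 and 30.7 CPM. Every RYGB liver was above every DIO liver, though RYGB livers 4 and 5 cleared DIO liver 4 by little, and GB-IL held both the highest and the lowest liver of all 14. The mean was 40.5 ± 16.3 CPM in RYGB (SD, n = 5) against 16.2 ± 7.71 CPM in DIO (SD, n = 5), a log2 fold change of 1.32 (SE 0.56, 95% interval 0.13 to 2.51, edgeR adjusted p = 0.547). Voom with sample quality weights placed it past the FDR (limma adjusted p = 0.0332). In GB-IL the mean was 33.8 ± 31.1 CPM (SD, n = 4), a log2 fold change of 1.06 (SE 0.58, 95% interval -0.18 to 2.30, edgeR adjusted p = 0.276), which was 1.43 without GB-IL liver 4 (edgeR adjusted p = 0.0365) and 0.40 without GB-IL liver 3 (edgeR adjusted p = 0.656). The last 15 bases of *Dnaic1*, an axonemal dynein gene on the opposite strand, overlap the end of *Enho*, which also overlaps the antisense gene *Gm12406*. *Dnaic1* was at 10.7 CPM in GB-IL liver 3 and 10.3 CPM in RYGB liver 2, the same livers in which *Enho* was highest, and at most 3.31 CPM in the other 12. It was at only 0.282 CPM (5 counts) in GB-IL liver 2, where *Enho* was at 47.3 CPM. In RYGB liver 1 *Dnaic1* was at 0.656 CPM and *Enho* at 34.2 CPM. Reads over the shared bases may not have been told apart, and their part in the level of *Enho* was not tested.

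*Ahsg* (ENSMUSG00000022868, chromosome 16, 22891277 to 22899449, plus strand), the gene of fetuin-A, was at 6650.1, 6517, 7686, 10217 and 8034 CPM in DIO livers 1 to 5. In GB-IL the 4 livers, in order, held 15634, 23600.4, 11932 and 5862 CPM. RYGB livers 1 to 5 held 11698, 8784, 9252, 9343 and 9600.1 CPM. The first 3 GB-IL livers were the highest of all 14 and GB-IL liver 4 the lowest, and the RYGB livers lay between 8784 and 11698 CPM with a DIO liver among them. The mean was 14257 ± 7418 CPM in GB-IL (SD, n = 4) against 7821 ± 1489.7 CPM in DIO (SD, n = 5), 1.82-fold higher, with a log2 fold change of 0.87 (SE 0.33, 95% interval 0.17 to 1.56, edgeR adjusted p = 0.140). Without GB-IL liver 4 it was 1.12 (edgeR adjusted p = 0.00771) and without GB-IL liver 2 it was 0.50 (edgeR adjusted p = 0.415). RYGB differed from DIO by a log2 fold change of 0.32 (95% interval -0.34 to 0.97, edgeR adjusted p = 0.805). *Ahsg* overlaps the antisense gene *Gm30505*.

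*Fetub* (ENSMUSG00000022871, chromosome 16, 22918334 to 22939778, plus strand), the gene of fetuin-B, starts 18884 bases beyond the end of *Ahsg* on the same strand. It was at 473, 398, 552, 576 and 458 CPM in DIO livers 1 to 5, and at 868, 1304, 1169 and 353 CPM in GB-IL livers 1 to 4. In RYGB livers 1 to 5 it was at 1003, 651, 639, 630.2 and 811 CPM. As for *Ahsg*, GB-IL livers 1 to 3 were above and GB-IL liver 4 below every DIO liver, and for *Fetub* all 5 RYGB livers were above every DIO liver as well. *Fetub* and *Enho* were the 2 of 9 hepatokines that separated RYGB from DIO completely, both upwards, where 3.53% of all genes separated in either direction and 1.87% upwards. The log2 fold change was 0.91 for GB-IL versus DIO (SE 0.31, 95% interval 0.26 to 1.56, edgeR adjusted p = 0.107) and 0.60 for RYGB versus DIO (SE 0.29, 95% interval -0.02 to 1.22, edgeR adjusted p = 0.579). DESeq2 called the first (adjusted p = 0.0418), as did edgeR without GB-IL liver 4 (log2 fold change 1.17, adjusted p = 0.00306), and without GB-IL liver 2 it was 0.68 (edgeR adjusted p = 0.293). GB-IL versus RYGB gave 0.31 (95% interval -0.35 to 0.96, edgeR adjusted p = 0.546).

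The genes next to the fetuin pair were read for their position, after the values of the pair had been seen. Upstream of *Ahsg*, *Dnajb11* differed by 0.61 (log2) between GB-IL and DIO (edgeR adjusted p = 0.218). *Tbccd1*, beyond it, went the opposite way to the pair, at -0.42 (edgeR adjusted p = 0.170). In RYGB versus DIO *Tbccd1* had -0.36 (edgeR adjusted p = 0.551). *Hrg*, encoding histidine-rich glycoprotein of the same cystatin superfamily, differed by 0.85 (log2) between GB-IL and DIO (edgeR adjusted p = 0.113). *Kng2*, a kininogen gene, rose by 1.69 (SE 0.38, edgeR adjusted p = 0.0329), from 265 CPM in DIO to 856 CPM in GB-IL, with 1173, 1421, 605 and 223 CPM in GB-IL livers 1 to 4. Its call was lost on omission of any 1 DIO liver or of GB-IL liver 1 or 2 (largest edgeR adjusted p = 0.0959), as were all calls in this comparison.

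*Lect2* (ENSMUSG00000021539, chromosome 13, 56542464 to 56548502, minus strand) was at 172, 113, 215, 125 and 140.5 CPM in DIO livers 1 to 5. GB-IL livers 1 to 4 held 22.01, 32.1, 105 and 174 CPM, and RYGB livers 1 to 5 held 202, 104, 112, 94.3 and 27.6 CPM. GB-IL livers 1 to 3 and RYGB livers 2 to 5 were below every DIO liver, RYGB liver 3 by little. GB-IL livers 1 and 2 and RYGB liver 5 were the 3 lowest of all 14, and the groups overlapped. These 3 livers were also among the 4 with raised neutrophil markers, and the fourth, GB-IL liver 3, had the most neutrophil marker RNA but 105 CPM of *Lect2*. In log2 terms the difference was -0.88 for GB-IL versus DIO (SE 0.56, 95% interval -2.08 to 0.33, edgeR adjusted p = 0.343) and -0.50 for RYGB versus DIO (SE 0.52, 95% interval -1.62 to 0.61, edgeR adjusted p = 0.819). Without GB-IL liver 4 the first was -1.53 (edgeR adjusted p = 0.0629) and without GB-IL liver 1 it was -0.57 (edgeR adjusted p = 0.620).

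*Rbp4* (ENSMUSG00000024990, chromosome 19, 38116629 to 38125281, minus strand) differed little between the groups. Its livers held 2466 to 4008 CPM in DIO (median 3419), 2499.9 to 3891 CPM in GB-IL (median 2815) and 2641 to 3916 CPM in RYGB (median 2809), which overlapped. In log2 terms the difference was -0.11 for GB-IL versus DIO (95% interval -0.61 to 0.38, edgeR adjusted p = 0.778), -0.13 for RYGB versus DIO (95% interval -0.59 to 0.34, edgeR adjusted p = 0.905) and 0.01 for GB-IL versus RYGB (95% interval -0.48 to 0.51, edgeR adjusted p = 0.977). A difference of more than 0.61 on the log2 scale lay outside all 3 intervals. *Ttr*, which encodes transthyretin, the plasma partner of the retinol carrier, was at 7781 ± 1302 CPM in DIO (SD, n = 5), 3387 ± 1970 CPM in GB-IL (SD, n = 4) and 4834 ± 1340.3 CPM in RYGB (SD, n = 5). GB-IL differed from DIO by -1.20 (log2) (edgeR adjusted p = 0.0816).

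*Shbg* (ENSMUSG00000005202, chromosome 11, 69614804 to 69617905, minus strand) had 3 counts in all, 2 in RYGB liver 1 and 1 in RYGB liver 5. The 12 livers at a count of 0 allow up to 0.106 to 0.170 CPM each (3 counts), a limit of counting error only. An exact two-sided permutation test of CPM gave p = 0.444 for RYGB versus DIO and p = 0.556 for GB-IL versus RYGB. In GB-IL versus DIO all livers of both groups were at 0 (exact permutation p = 1.0).

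**Figure D2:**
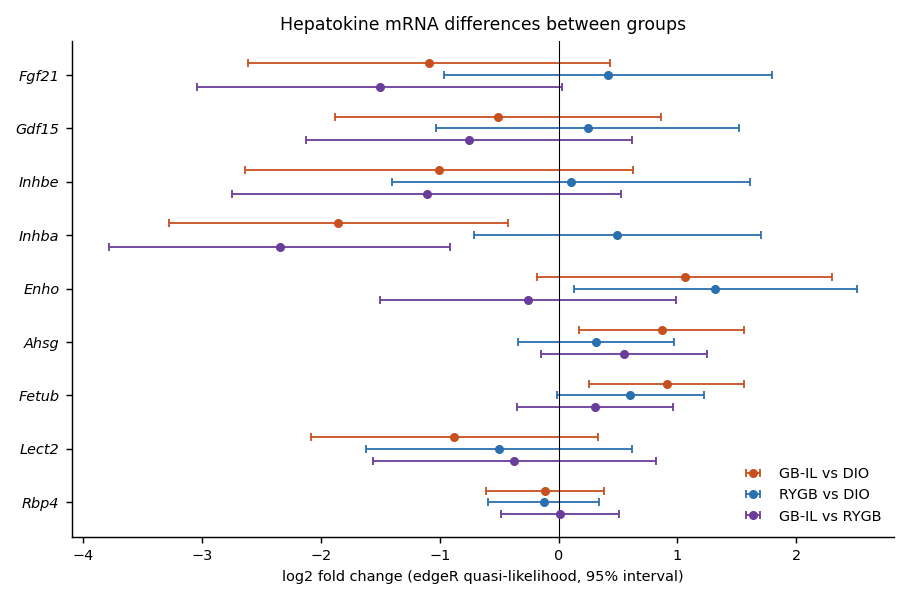
Log2 fold change of the 9 tested hepatokines with its 95% interval by edgeR, for GB-IL versus DIO (orange), RYGB versus DIO (blue) and GB-IL versus RYGB (purple). The intervals of *Inhba*, *Ahsg* and *Fetub* in GB-IL versus DIO of *Enho* in RYGB versus DIO and of *Inhba* in GB-IL versus RYGB leave out 0 before adjustment for multiple testing.

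The plot of fold changes with their intervals sets the 3 comparisons side by side. Any pair of them shares the livers of a group, so they are not independent of each other. Over the 9 tested hepatokines the median log2 fold change was -0.51 for GB-IL versus DIO, 0.32 for RYGB versus DIO and -0.37 for GB-IL versus RYGB, against medians of 0.04, 0.01 and 0.03 over all 14252 genes. In GB-IL versus DIO 3 were above 0 and 6 below, and in RYGB versus DIO 7 were above 0 and 2 below.

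**Figure D3:**
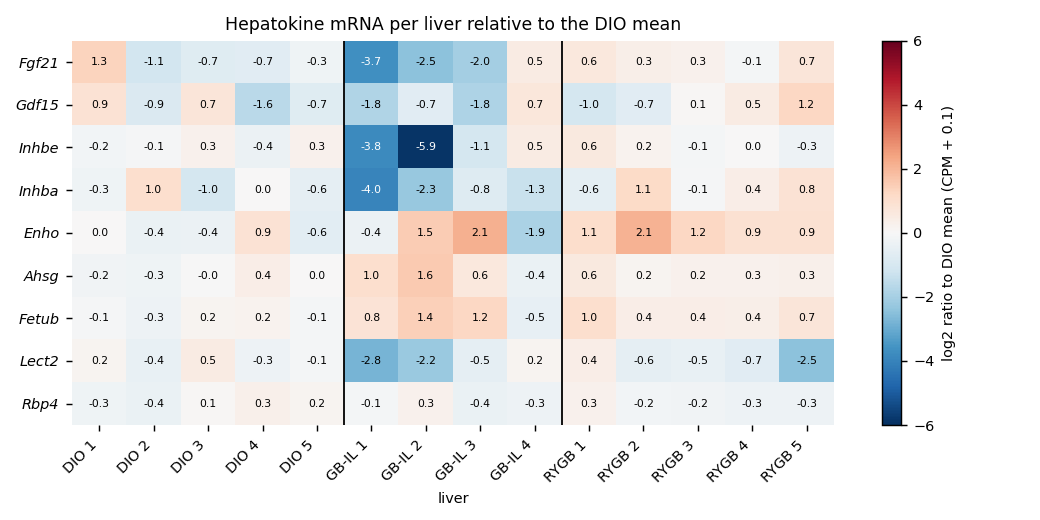
Level of the 9 tested hepatokines in each of 14 livers as the log2 ratio of CPM + 0.1 to the DIO mean, with red for higher, blue for lower and the ratio printed in each cell. GB-IL livers 1 and 2 are the bluest columns in *Fgf21*, *Inhbe* and *Inhba* and lie above 0 in *Ahsg* and *Fetub*, whereas GB-IL liver 4 is at or above 0 in *Fgf21* and *Inhbe* and below 0 in *Ahsg* and *Fetub*.

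The heat map of livers shows which members went together. Across the 14 livers the log2 CPM of *Ahsg* and *Fetub* had a Pearson correlation of 0.891, and of 0.870 about the group means. *Inhbe* and *Ahsg* went opposite ways, at -0.854 and -0.863, and *Fgf21* and *Inhbe* went together at 0.774 and 0.614. These values describe livers of which GB-IL 1 and 2 stand far from the others, and they carry no test. By the same measure over 12695 genes (mean CPM of 1 or more), the genes most like *Fgf21* were *Paqr9* (0.955), *Tmcc1* (0.939) and *Colec10* (0.912). *Inhbe* was nearest to *Nnt* (0.964), *Dpp4* (0.959) and *Gm15163* (0.958), and *Lect2* to *Pon1* (0.976) and *Mcee* (0.968). For *Ahsg* they were *Rpl3* (0.963), *Rplp0* (0.954) and *Gm8730* (0.951), and for *Fetub* *Ntf3* (0.948), *C3* (0.935) and *Ext2* (0.933). *Enho* was nearest to its overlapping neighbour *Dnaic1* (0.886), then to *Lsr* (0.851) and *Pdia5* (0.835). The nearest genes were *Dna2* (0.977), *Cables2* (0.961) and *Lig4* (0.957) for *Inhba*, *Sgta* (0.917), *Thoc5* (0.891) and *Tmem109* (0.885) for *Rbp4*, and *Cyp2c55* (0.819), *Ap3s1* (0.805) and *Robo1* (0.778) for *Gdf15*, the lowest of the set.

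**Figure D4:**
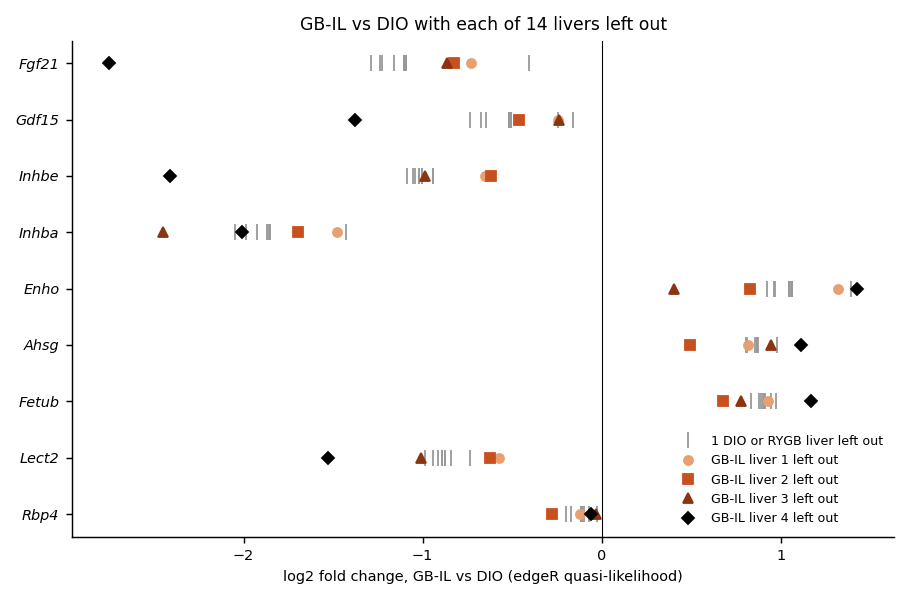
Log2 fold change of GB-IL versus DIO by edgeR for the 9 tested hepatokines with each of the 14 livers left out in turn. Black diamonds mark the omission of GB-IL liver 4, which moved *Fgf21* to -2.75 and *Inhbe* to -2.41, and the other symbols mark the other livers.

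The plot of omissions shows how far 1 liver decides these values. Without GB-IL liver 4, 5 of 9 hepatokines passed the FDR in GB-IL versus DIO by edgeR, 3 higher (*Ahsg*, *Fetub* and *Enho*) and 2 lower (*Fgf21* and *Inhbe*), and 24.6% of all genes did (15.4% higher and 9.27% lower). Against RYGB 4 of 9 then passed, *Ahsg* higher and *Fgf21*, *Inhbe* and *Inhba* lower, with 21.5% of all genes (13.4% higher and 8.09% lower). RYGB and DIO then differed in 0 of 9, with 0.0345% of all genes. With any of the other 13 livers left out 0 of 9 passed in any of the 3 comparisons. Background shares in those omissions were 0.0% to 3.99% of all genes in GB-IL versus DIO. They were at most 0.00705% in RYGB versus DIO and at most 0.166% in GB-IL versus RYGB. GB-IL liver 4 is a labelled GB-IL sample and is kept in all other values.

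Genes that belong to the same pathways were listed apart from the members, in lists drawn up with earlier results of these data known. Their counts beside the shares of all genes are therefore a description and carry no test. In GB-IL versus DIO 3.15% of all genes rose and 0.112% fell by edgeR, and the counts called per list are to be read against these shares. For RYGB versus DIO 1.87% of all genes had every RYGB liver above every DIO liver. Some genes below were named for a small p in that comparison, so such a separation follows in part from the choice. In the integrated stress response, through which ATF4 drives *Fgf21*, *Inhbe* and *Gdf15*, 2 of 29 tested genes rose in GB-IL and 0 fell by edgeR, with a median log2 fold change of 0.78. They were *Asns*, encoding asparagine synthetase, at 43.1, 91.1, 18.3 and 0.295 CPM in GB-IL livers 1 to 4 against 0.433 to 1.67 CPM in DIO (log2 fold change 5.04, SE 0.94, edgeR adjusted p = 0.0278), and *Atf3*, a stress-induced transcription factor (2.65, SE 0.63, edgeR adjusted p = 0.0365). *Asns* was thus high in the 3 livers in which *Fgf21* and *Inhbe* were low, and every RYGB liver was also above DIO, at 4.39 to 14.4 CPM (log2 fold change 3.05, edgeR adjusted p = 0.383). *Slc7a11*, the cystine transporter, had 2.42 in GB-IL versus DIO (edgeR adjusted p = 0.0537), and *Mthfd2*, a mitochondrial folate enzyme, had 1.31 in RYGB versus DIO (edgeR adjusted p = 0.331). Without GB-IL liver 4, 16 of 29 rose and 0 fell, where 15.4% of all genes rose and 9.27% fell. *Ddit3*, encoding CHOP, was named after its values were seen. On the same chromosome as *Inhbe*, at a distance of 52569 bases, it is not the nearest tested gene. It differed by 0.51 (log2) between GB-IL and DIO (edgeR adjusted p = 0.489).

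PPAR-alpha, the nuclear receptor that drives fatty acid oxidation and *Fgf21* in fasting, gave a list of 30 target genes, of which 0 passed the FDR in GB-IL versus DIO and 25 were below 0 (median log2 fold change -0.67, 12 of 30 with an unadjusted p below 0.05 by edgeR, as for 23.1% of all genes). *Acot1*, an acyl-CoA thioesterase, had -1.92 (edgeR adjusted p = 0.0580), *Acaa2*, a thiolase of beta-oxidation, had -0.97 (edgeR adjusted p = 0.0586) and *Cpt2*, of the carnitine shuttle, had -0.79 (edgeR adjusted p = 0.0785). Without GB-IL liver 4, 17 of 30 fell and 1 rose, where 9.27% of all genes fell and 15.4% rose. *Ppara* itself, named after its values were seen, had 90.1 ± 45.2 CPM in DIO (SD, n = 5) and 46.2 ± 44.98 CPM in GB-IL (SD, n = 4), a log2 fold change of -0.96 (edgeR adjusted p = 0.287). In RYGB versus DIO 0 of 30 passed and 22 were below 0, among them *Angptl4*, a secreted lipoprotein lipase inhibitor, at -1.11 (edgeR adjusted p = 0.510), while *Cyp4a31*, a fatty acid hydroxylase, had 1.51 (edgeR adjusted p = 0.468).

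The median log2 fold change of the activin and follistatin family was 0.33. Of its 16 tested genes 1 rose in GB-IL and 0 fell, against 3.15% and 0.112% of all genes. It was *Fst*, encoding follistatin, a secreted hepatokine-like protein that binds and blocks activins, at 33.3, 51.5, 7.59 and 1.88 CPM in GB-IL livers 1 to 4, 0.396 to 3.35 CPM in DIO and 3.66 to 10.01 CPM in RYGB. GB-IL livers 1 to 3 and all 5 RYGB livers were above every DIO liver. The log2 fold change was 3.72 for GB-IL versus DIO (SE 0.75, edgeR adjusted p = 0.0278) and 1.92 for RYGB versus DIO (SE 0.69, edgeR adjusted p = 0.482). *Fstl1*, a follistatin-like glycoprotein, had 0.97 (edgeR adjusted p = 0.0667) and *Tgfbr3*, the betaglycan coreceptor, 1.01 (edgeR adjusted p = 0.155) in GB-IL versus DIO, and *Acvr1*, a type I receptor, had 0.45 in RYGB versus DIO (edgeR adjusted p = 0.468).

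Among 15 tested receptors and carriers of hepatokines (median -0.14) 2 rose in GB-IL and 0 fell, against 3.15% and 0.112% of all genes. *Fgfr1*, a receptor of FGF21, had a log2 fold change of 1.89 (SE 0.43, edgeR adjusted p = 0.0336) and *Mmp14*, a membrane protease that cleaves the GDF15 receptor, 1.27 (SE 0.32, edgeR adjusted p = 0.0437). In RYGB versus DIO all 5 livers were above DIO for both, with 1.15 (edgeR adjusted p = 0.472) and 0.93 (edgeR adjusted p = 0.446). Both were also named for a small p in that comparison. The FGF21 coreceptor gene *Klb*, named after its values were seen, had -0.44 in GB-IL versus DIO (edgeR adjusted p = 0.272).

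Of 29 other tested genes for secreted liver proteins (median 0.01) 4 rose in GB-IL and 0 fell, against 3.15% and 0.112% of all genes. *Igfbp1*, encoding a fasting-induced IGF binding protein, was at 10216, 5514, 149.96 and 56.6 CPM in GB-IL livers 1 to 4 against 11.6 to 109 CPM in DIO (log2 fold change 5.99, SE 1.29, edgeR adjusted p = 0.0310). *Orm1*, an acute phase protein, had 3.18 (SE 0.61, edgeR adjusted p = 0.0278), *Itih3*, an inter-alpha-trypsin inhibitor chain named because it was called, 1.80 (SE 0.43, edgeR adjusted p = 0.0365) and *Gpnmb*, also among the macrophage markers above, 7.73 (SE 1.23, edgeR adjusted p = 0.0278). In RYGB versus DIO none of the 29 passed by edgeR. *Igfbp2* had 1.42 (edgeR adjusted p = 0.348), with all 5 RYGB livers above DIO, and *Hamp*, encoding hepcidin, had -3.82 (edgeR adjusted p = 0.348). Of 29 hepatocyte transcription factors 0 passed in GB-IL versus DIO and 24 were below 0 (median -0.32), among them *Onecut1* at -2.77 (edgeR adjusted p = 0.0803) and *Foxa1* at -0.99 (edgeR adjusted p = 0.0927). As for *Kng2*, each of the 9 list genes called here lost its call on omission of any 1 DIO liver or of GB-IL liver 1 or 2 (largest edgeR adjusted p = 0.153), and *Itih3* and *Mmp14* did so with further livers.

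**Figure D5:**
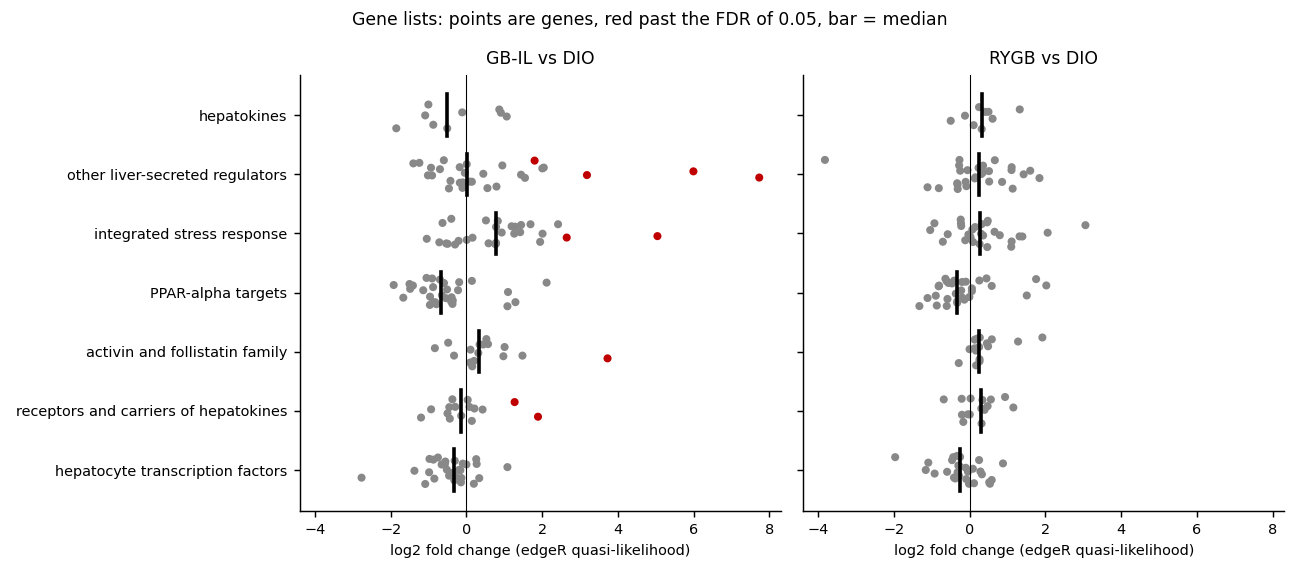
Log2 fold change by edgeR of the tested genes of each list, 1 point per gene, for GB-IL versus DIO (left) and RYGB versus DIO (right), with genes past the FDR in red and the median as a black bar. Points past the FDR are in GB-IL versus DIO alone, 9 in all over these lists, and none is 1 of the 10 members.

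The plot of gene lists sets the 9 members beside these genes. In GB-IL versus DIO the members' differences ran from -1.85 (*Inhba*) to 1.06 (*Enho*).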

How the data were processed

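Liver RNA from 5 DIO, 4 GB-IL and 5 RYGB mice was sequenced in 1 library per liver. The authors mapped reads to mm10 using TopHat 2 and obtained gene counts with HTSeq, and the deposited table holds these raw counts for 25212 genes, 577 of them at 0 throughout. The submitters' processing notes also list hg19 without a role. The study's methods describe amplified RNA, whereas the labels name 2 stranded kits, and neither ties a kit to a liver. The strand setting of the counting is not given in the sources used here.

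Groups were taken from the sample labels. Counts were filtered with filterByExpr by group, scaled with TMM and fitted with the quasi-likelihood test of edgeR 4.0.16 in R 4.3.3, with a mean per group over all 14 livers and Benjamini-Hochberg adjustment over 14252 genes. Standard errors were the log2 fold change over the square root of F, and intervals are 95%. The scripts were tested on simulated data. Alternatives were RLE and upper quartile scaling, no filter, a mean of at least 50 counts, DESeq2 1.42.0, voom with quality weights in limma 3.58.1, robust estimation, a fit of the compared groups alone, the replicate number as a block and omission of each liver. *Shbg*, which failed the filter, was tested with an exact permutation test in scipy 1.17.1. No column of the table was left out.

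Positions of genes were looked up in GENCODE M21 (GRCm38, equal to mm10), which matched 24701 identifiers, and promoters are those of RefSeq on GRCm38.p6. All 10 members are described. From each pathway list the 3 genes with the smallest p in GB-IL versus DIO and the 2 with the smallest p in RYGB versus DIO are named, with any further called gene where at most 5 were called, up to 2 genes of highest mean CPM from a marker list, and for each member the 3 genes with the highest correlation. Genes named outside this rule are marked as such. Some genes that the rule names are not reported here. The members and lists were chosen with earlier results of these data known. Intervals and the limits set by a count of 0 cover counting error or the spread between livers only.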

Additional observations from a re-analysis of the deposited data

Results flagged for a closer look

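In 5 of the 28 combinations of a hepatokine and a group that were checked, 1 liver stood apart from the others of its group by more than Dixon's 95% limit, which chance passes in about 1 in 20 groups. *Fgf21* was 9.94 CPM in DIO liver 1, where the other DIO livers ran from 1.77 to 3.22 CPM. The same gene was 5.50 CPM in GB-IL liver 4 and 0.210 to 0.891 CPM in the other GB-IL livers. In RYGB liver 1 *Ahsg* was 11697.5 CPM, where the others ran from 8784 to 9600.1 CPM, and *Rbp4* was 3916 CPM, where the others ran from 2641 to 2873 CPM. *Enho* was 69.0 CPM in RYGB liver 2 and 30.4 to 37.95 CPM in the others. These livers were kept in every value unless their omission is stated, and the cause was not tested.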

How the results depend on the processing

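The number of hepatokines called differed from 0 under DESeq2, with 2 in GB-IL versus DIO and 1 in GB-IL versus RYGB, and under voom, with 1 in RYGB versus DIO. Over the omissions of a single liver it ran from 0 to 5 in GB-IL versus DIO, 0 to 0 in RYGB versus DIO and 0 to 4 in GB-IL versus RYGB. Over all genes, DESeq2 called 1292, 97 and 845 in these 3 comparisons. Voom called 1690 in RYGB versus DIO and 115 in GB-IL versus RYGB, a fit of the compared groups alone called 0 in GB-IL versus DIO and 33 in RYGB versus DIO, and no filter on low counts gave 51 in GB-IL versus RYGB. Omission of a liver gave 0 to 3572, 0 to 5 and 0 to 3120 genes. The count of 465 in GB-IL versus DIO became 0 on omission of any 1 of 7 livers (the 5 DIO livers and the first 2 GB-IL livers) and 3572 on that of GB-IL liver 4. The cause was not tested.

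The replicate number as a block called 1 gene in GB-IL versus DIO, 0 in the other comparisons and 0 hepatokines. Same-numbered livers correlated at -0.356 to 0.370 about their group means. Livers of unlike number were not set beside them, so whether a number marks a shared cohort was not tested.

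Differences near 0 changed sign. *Rbp4* in GB-IL versus RYGB was -0.024 without a filter, -0.069 under voom and -0.15 to 0.13 over the omissions, with -0.15 without GB-IL liver 2 and -0.0048, -0.0079, -0.027 and -0.035 without RYGB livers 2, 3, 4 and 5. *Enho* in the same comparison ran from -0.92 to 0.11, with 9.9e-05, 0.11 and 0.00012 without GB-IL liver 1, GB-IL liver 4 and RYGB liver 2. In RYGB versus DIO *Gdf15* ran from -0.16 (without RYGB liver 5) to 0.60 and *Inhbe* from -0.042 (without RYGB liver 1) to 0.20. Of the single-hepatokine differences, 359 over omissions and 234 over the other settings kept their direction and side of the threshold, and 9 and 4 moved past it. *Inhba* had no value under a mean of 50 counts and *Shbg* none except without a filter. Depth limits *Inhba* and *Fgf21*, with 0 to 19 and 4 to 149 counts per GB-IL liver, and *Shbg*, with 3 counts in all.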
